A study of Mus musculus with 8 samples.

Results

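The genes described here are the solute carriers that move sugars, amino acids, peptides and monocarboxylates across cell membranes. Members were taken by gene name from the scanner files as genes of the families Slc1a, Slc2a, Slc3a, Slc5a, Slc6a, Slc7a, Slc15a, Slc16a, Slc36a, Slc38a and Slc43a. This gave 105 of the 36085 genes named on the array. The name Slc7a6os also fits the pattern of letters, but it is not a carrier of the Slc7a family and was left out. Each gene was read from 1 probe, the brightest by mean processed signal of those that rose well over background on every one of the 4 arrays in either group. By that rule 87 of the 105 genes were measured and 18 were not.

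The series compared whole small intestine of wild-type mouse embryos with that of Rfx6-/- embryos at stage E18.5, shortly before birth, on 4 arrays labelled control and 4 labelled Rfx6 knockout. Rfx6 encodes a transcription factor of endocrine cells of the gut and pancreas. The mutant allele came from floxed mice crossed to CMV-Cre, which deletes in all tissues, and the homozygotes from crosses between heterozygotes, so the gene is missing outside the intestine too. Strain, sex and litter are not given in the labels used here, and nothing there says whether the arrays of a group came from separate embryos, so the p-values measure only the spread between these samples.

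Nutrient absorption needs a carrier on each face of the enterocyte, the absorptive cell of the intestinal lining. At the brush border, glucose and galactose enter with sodium through the product of Slc5a1, fructose through that of Slc2a5, small peptides through that of Slc15a1, neutral amino acids through that of Slc6a19, and basic amino acids and cystine through the pair encoded by Slc3a1 and Slc7a9. At the basolateral face, sugars leave through the product of Slc2a2, basic amino acids through the pair of Slc7a7 and Slc3a2, neutral amino acids through Slc7a8 with Slc3a2, and aromatic amino acids through Slc16a10. Other members serve the cell's own needs or the uptake of transmitters by nerve and endocrine cells.

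Values are levels, the log2 processed signal minus the array's 75th percentile, so that 0 is the signal at that percentile, and differences are knockout minus control in the same log2 units. All arrays had 62976 spots, lay on 1 slide and shared 1 scan, with 57.4% to 67.1% of probes well above background. The probe for Rfx6 itself read -2.93, -2.91, -2.98 and -3.74 on the control arrays and -2.32, -3.37, -3.11 and -2.25 on the knockout arrays, a difference of 0.38 (SE 0.29, limma adjusted p 0.504). It therefore does not check the labels, and "knockout" below means the arrays so labelled. Of 10 listed enteroendocrine hormone genes 7 were lower there (Gip, Gcg, Cck, Nts, Sst, Ghrl and Sct), beside 2.58% of all genes. The other 3 did not pass. Chga and Chgb differed by 0.26 and 0.17. Pyy differed by -2.65, but on knockout array 1 it read 1.41, above every control array, and on the other knockout arrays -2.78 to -2.56. All 10 listed enterocyte markers were well above background on every array, as the labelled tissue requires. Of 10 listed stomach epithelium genes 8 were higher on the knockout arrays (Gkn1, Gkn2, Gkn3, Tff1, Tff2, Atp4a, Atp4b and Cblif), beside 2.32% of all genes. In bulk tissue, fewer cells of a type and less RNA per cell cannot be told apart.

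Few transporter genes passed the test. Of the 87 measured, 4 were lower and 3 higher on the knockout arrays at an adjusted p under 0.05, which is 8.05% of them, where the same call was made for 4.90% of the 23277 genes tested. The lower ones were Slc2a2, Slc6a3, Slc16a12 and Slc16a13, against 2.58% of all genes called lower, and the higher ones were Slc1a1, Slc2a10 and Slc38a11, against 2.32% called higher. The difference was under 0.5 in size for 75 of the 87, or 86.2%, beside 92.4% of all genes, and the median size without regard to sign was 0.21 over the members and 0.14 over all genes. Of the 87 members, 80 were well above background on all 8 arrays. The other 7 include Slc38a11, Slc6a14, Slc5a5 and Slc1a3, which passed the filter only through the knockout group, where their mean levels were higher. The groups did not overlap for 15 members, or 17.2%, beside 14.7% of all genes tested. Of these, 7 were lower and 8 higher on the knockout arrays, where 9.24% of all genes were lower and 5.41% higher without overlap. The 8 higher ones include Slc38a11 and Slc6a14, which passed the filter only through the knockout group. An unadjusted p under 0.05 was found for 29 members, or 33.3%, beside 20.5% of all genes. The median difference was -0.07 over the members and -0.05 over all genes tested. The arrays lay in 2 rows of the slide, with 1 control and 3 knockout arrays in the first and 3 control and 1 knockout in the other, and all 7 called genes kept their direction within each row. With the row as a block, Slc2a2 and Slc1a1 did not pass. Slc16a10 (-0.46, limma adjusted p 0.042) and Slc5a8 (-0.70, limma adjusted p 0.0396) did pass with it. Within the rows Slc2a2 differed by -0.80 and -0.52, and Slc1a1 by 0.79 and 1.28. Without the block Slc5a8 differed by -0.26 (limma adjusted p 0.641), and its probe was well above background on 3 of 4 knockout arrays. It read -4.25 on knockout array 1, the only knockout array in its row, and -3.31 to -3.08 on the others.

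**Figure D1:**
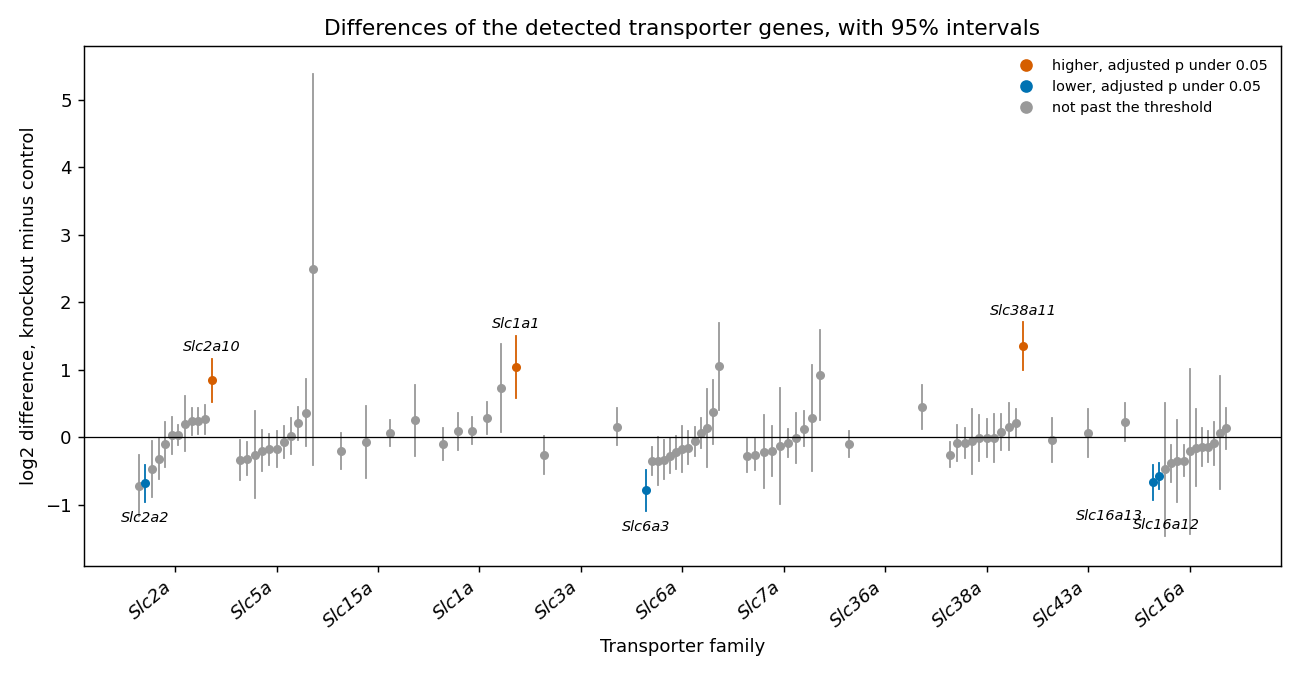
Each point is the log2 difference, knockout minus control, of 1 of the 87 measured transporter genes, grouped by family on the x axis, with its 95% confidence interval as a vertical line. The 7 coloured and named genes passed an adjusted p of 0.05, most other points lie within 0.5 of 0, and the widest interval is that of Slc5a5, from -0.41 to 5.38.

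Among the sugar carriers, Slc2a2 fell and Slc2a10 rose, while the brush border carriers for glucose and fructose did not pass the test. Slc2a2 (probe at chromosome 3, 28627016 to 28627075, mm9) encodes the facilitative glucose transporter of the basolateral membrane, also found in liver and pancreatic beta cells. Its levels were 2.88, 2.59, 2.90 and 2.86 on the control arrays and 2.26, 1.99, 2.33 and 1.91 on the knockout arrays. Every knockout value lay below every control value. The difference was -0.68 with a standard error of 0.12, a 1.61-fold lower level (limma adjusted p 0.0149). It did not pass under 5 of 22 other settings, among them without control array 1 or without knockout array 2, and its highest adjusted p was 0.0577.

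Slc2a10 (chromosome 2, 165344713 to 165344772), a facilitative glucose transporter known from arterial walls and connective tissue, read -2.75, -2.56, -2.27 and -2.40 on the control arrays. On the knockout arrays it read -1.35, -1.60, -1.80 and -1.84. The groups did not overlap and the level was 1.80-fold higher, with a difference of 0.85 and a standard error of 0.14 (limma adjusted p 0.0115). This gene and Slc2a2 thus moved in opposite directions within 1 family, in which 5 of 12 measured genes had differences below 0 and 7 above.

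Slc2a5, which carries fructose, read 0.26, -0.27, 0.01 and 0.43 on the control arrays and -0.54, -0.78, -0.17 and -0.96 on the knockout arrays. Its difference of -0.72 was as large as that of Slc2a2, but the groups overlapped at 1 array on each side and it did not pass (standard error 0.20, limma adjusted p 0.0796). Without knockout array 3, the highest of its group, it passed at -0.87 (limma adjusted p 0.0429). Slc5a1, which carries glucose and galactose in with sodium, read 1.74, 1.31, 1.70 and 1.72 against 1.24, 1.34, 1.50 and 1.05. Its difference of -0.34 had a 95% interval from -0.64 to -0.04 and did not pass the adjusted test (limma adjusted p 0.194). Slc2a1, the glucose transporter of most dividing cells, differed by -0.10 with an interval from -0.44 to 0.23.

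None of the other Slc2a genes passed in the limma fit. In the whole family 8 of 12 genes had an unadjusted p under 0.05 and 5 of 12 had groups that did not overlap, beside 20.5% and 14.7% of all genes. Slc2a3, Slc2a4 and Slc2a13, the last a carrier of myo-inositol, had groups that did not overlap, with differences of 0.27, 0.24 and 0.24 that did not pass. Slc2a8 differed by -0.32 and Slc2a9, a carrier of urate, by -0.47, also short of the threshold. In the sodium-coupled Slc5a family 0 of 11 measured genes passed in the limma fit and 2 had an unadjusted p under 0.05, Slc5a1 and Slc5a11. Slc5a11, a carrier of myo-inositol, differed by -0.32 (limma adjusted p 0.14).

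Slc5a5, the sodium-iodide symporter of thyroid and gastric mucosa, had a difference of 2.49 ± 1.28 (SE; limma adjusted p 0.314), the largest of the members with the processed signal. With the normexp background correction it was 0.47, smaller than those of several others. Its levels were -7.22, -6.48, -7.18 and -0.95 on the control arrays and -2.57, -3.40, -3.66 and -2.26 on the knockout arrays. It stood well above background on all 4 knockout arrays but on control array 4 only among the controls, so the other control values rest on background signal. Control array 4 was also above every knockout array. Without it no control array had the probe above background. The knockout level was then at least 3.29-fold higher, against each array's lowest signal among probes well above background, a bound that was not tested. The refit without control array 4 took the other control values as measured, on background signal, and gave 3.99 (limma adjusted p 0.00107). The call thus depends on this array, and that p-value does not belong to the bound. The summed signal of the stomach list, as log2, was 2.73 on control array 4, between -0.08 and 0.64 on the other controls and between 8.60 and 9.49 on the knockout arrays; its part in the value of Slc5a5 was not tested.

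For peptides, no member passed. Slc15a1, the proton-coupled carrier through which the products of protein digestion enter as small peptides, read 0.56, 0.27, 0.41 and 0.54 on the control arrays and 0.21, 0.05, 0.52 and 0.20 on the knockout arrays. The groups overlapped, and the difference of -0.20 had a 95% interval from -0.47 to 0.06 (limma adjusted p 0.37). Slc15a2, the form best known from kidney, differed by -0.07, and the lysosomal peptide and histidine carriers Slc15a3 and Slc15a4 by 0.25 and 0.07.

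Among the acidic amino acid carriers, Slc1a1 rose. Slc1a1 (chromosome 19, 28988332 to 28988391) encodes the glutamate and aspartate carrier of the brush border, also found in neurons. It read -2.65, -3.43, -2.59 and -2.71 on the control arrays and -1.63, -1.70, -1.69 and -2.18 on the knockout arrays, with no overlap. The level was 2.06-fold higher, a difference of 1.04 (SE 0.20, limma adjusted p 0.0231). The call was lost under 7 of 22 other settings, among them without control array 1 or any 1 of knockout arrays 1, 2 and 3, with adjusted p up to 0.0802. The differences of the other acidic and neutral carriers of the family were 0.73 for Slc1a3, the glutamate carrier of glia, 0.29 for Slc1a6, 0.10 for Slc1a4 and -0.10 for Slc1a5, the glutamine carrier of dividing cells, and none of these passed in the limma fit. Slc1a3 was well above background on 1 of 4 control arrays.

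The carriers that take up neutral and basic amino acids at the brush border did not pass the test. Slc6a19 read 2.94, 2.44, 2.68 and 2.70 on the control arrays and 2.32, 2.17, 2.59 and 2.36 on the knockout arrays, a difference of -0.33 with a 95% interval from -0.62 to -0.04 (limma adjusted p 0.186). Slc6a20a, the carrier of proline, differed by -0.35 (limma adjusted p 0.249). The heavy chain gene Slc3a1 and its light chain gene Slc7a9 had differences of 0.16 and -0.08, with intervals from -0.11 to 0.43 and from -0.29 to 0.12. For the basolateral pair, Slc7a7 differed by -0.26 and Slc3a2 also by -0.26, with adjusted p values of 0.19 and 0.274 in the limma fit. Without control array 2, where it was low, Slc3a2 passed, with a difference of -0.38 (limma adjusted p 0.0345).

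Slc6a14, a broad carrier of neutral and basic amino acids known from the distal gut and lung, read -3.91, -4.94, -3.86 and -4.88 on the control arrays and -3.81, -3.09, -3.30 and -3.20 on the knockout arrays. The groups were separated by a narrow gap, and the difference of 1.05 did not pass (limma adjusted p 0.0736). Only 2 of 4 control arrays had it well above background. Slc7a15 had a difference of 0.92 (limma adjusted p 0.122). Its knockout values were -0.32, -0.29, -0.24 and -1.36, and without the last, knockout array 4, it passed in the limma fit with a difference of 1.19 (adjusted p 0.0307). Lists of markers along the length of the gut also differed: 4 of 7 proximal genes were lower (Gata4, Fabp1, Apoa4 and Lct) and 1 higher (Cyp2b10), and 3 of 6 distal genes were higher (Fabp6, Fgf15 and Guca2a) and 0 lower by limma, beside 2.58% of all genes lower and 2.32% higher. The summed signal of the proximal list, as log2, ran from 9.85 to 10.11 on control and from 9.14 to 9.48 on knockout arrays. The summed signal of the distal list, as log2, ran from 7.24 to 7.92 on control and from 8.78 to 9.13 on knockout arrays; the part of either in the values of Slc1a1, Slc6a14 and Slc7a15 was not tested.

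Of the transmitter carriers in the Slc6a family, Slc6a3 fell. Slc6a3 (chromosome 13, 73715973 to 73716032) encodes the dopamine transporter, which returns dopamine into the cell that released it. It read 1.51, 1.10, 1.13 and 1.45 on the control arrays and 0.61, 0.23, 0.62 and 0.58 on the knockout arrays, with no overlap. The level was 1.73-fold lower, a difference of -0.79 (SE 0.13, limma adjusted p 0.0121), and it passed under all 22 other settings run. Slc6a4, the serotonin transporter, read 0.32, 0.23, 0.17 and 0.27 against -0.16, -0.24, 0.11 and -0.15. Its groups did not overlap either, but the difference of -0.36 fell short of the threshold (limma adjusted p 0.0658). Without knockout array 3 it passed, at -0.43 (limma adjusted p 0.0286). None of the 7 listed genes of enteric neurons and glia passed by limma, with differences from 0.02 to 0.23.

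**Figure D2:**
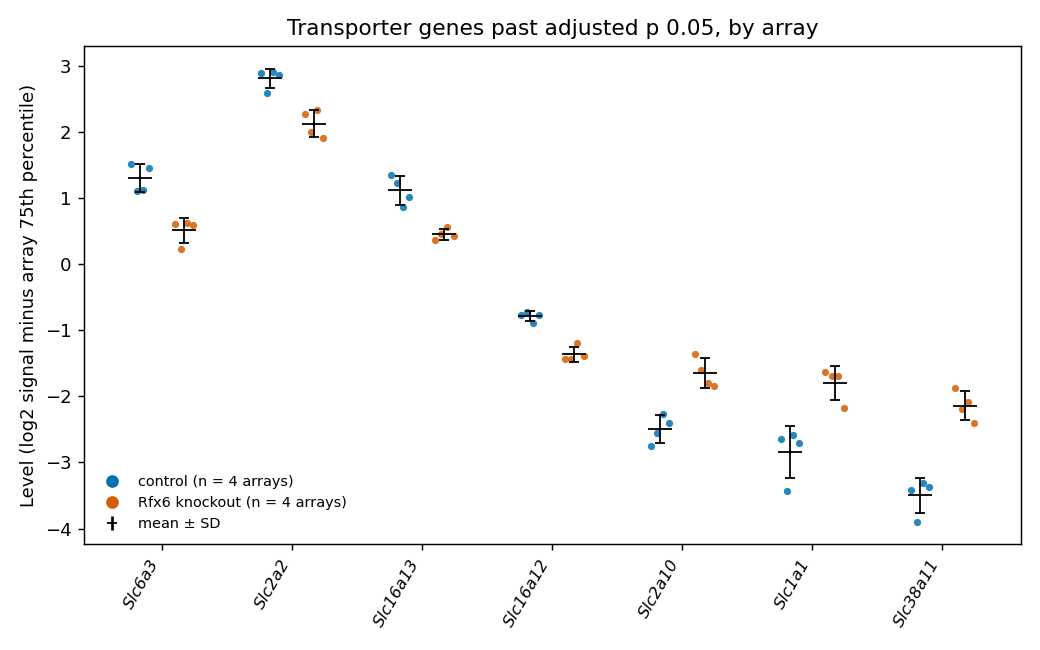
Each point is the level of 1 gene on 1 array, as log2 signal minus the array's 75th percentile, for the 7 transporter genes past an adjusted p of 0.05, with 4 control and 4 knockout arrays, the mean as a wide bar and the SD as error bars. The groups do not overlap for any of the 7 genes, and control array 2 is the low control point of Slc1a1 and Slc38a11, at -3.43 and -3.89.

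Among the carriers of the Slc38a family, which move glutamine and other neutral amino acids, Slc38a11 rose. Slc38a11 (chromosome 2, 65154690 to 65154749) encodes a member whose substrate is less well known. It read -3.41, -3.89, -3.31 and -3.37 on the control arrays and -1.88, -2.19, -2.09 and -2.41 on the knockout arrays. The difference was 1.36 with a standard error of 0.16, a 2.56-fold higher level (limma adjusted p 0.00198), and it passed under all 21 other settings in which it was measured. The probe was well above background on 3 of 4 control arrays, and the size depends on how background is treated, with a difference of 0.68 after the normexp correction and 0.72 in the authors' deposited values. A second probe of this gene differed by 0.20 and did not pass when every probe was tested (limma adjusted p 0.473), so the 2 probes differ in the size of the change. The other 10 measured genes of the family had differences from -0.26 to 0.21, among them Slc38a2 at -0.08, the carrier that cells induce when amino acids are scarce, and Slc38a9, the lysosomal arginine sensor, at 0.21. Another probe of Slc38a9 differed by -0.34, so no direction is given for it.

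Of the monocarboxylate and related carriers, Slc16a12 and Slc16a13 fell. Slc16a12 (chromosome 19, 34743639 to 34743698) encodes a carrier of creatine. It read -0.78, -0.72, -0.89 and -0.77 on the control arrays and -1.44, -1.44, -1.19 and -1.38 on the knockout arrays, a 1.49-fold lower level (difference -0.57, standard error 0.08, limma adjusted p 0.0067). Slc16a13 (chromosome 11, 70030487 to 70030546), a proton-coupled carrier of lactate, read 1.35, 1.23, 0.87 and 1.01 against 0.36, 0.45, 0.56 and 0.43. Its level was 1.59-fold lower, a difference of -0.66 (SE 0.11, limma adjusted p 0.0132). A second probe of Slc16a13 differed by -0.23 and did not pass (limma adjusted p 0.191). Without control array 2 and knockout array 4 together the difference was -0.62 (limma adjusted p 0.0648).

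In the Slc16a family 11 of 13 measured genes were below 0, beside 60.5% of all genes, with a median of -0.21. An unadjusted p under 0.05 was found for 4, beside 20.5% of all genes. Slc16a10, the basolateral exit for aromatic amino acids, had groups that did not overlap, at 2.77, 2.40, 2.50 and 2.51 on control and 2.08, 2.13, 2.32 and 2.28 on knockout arrays, but its difference of -0.34 did not pass (limma adjusted p 0.0968), although it did with the slide row as a block. Slc16a1, the main carrier of lactate and of short-chain fatty acids, differed by -0.15 with an interval from -0.43 to 0.13. Slc16a6, a carrier of ketone bodies, differed by -0.39 on 1 probe and 0.14 on another, so no direction is given. The family counts above use the first of these probes. The value of Slc16a11, -0.48, rests on 3 of 4 control arrays, since its spot was set aside as an outlier on the other one. It read 1.84 on control array 3, -0.073 and 0.005 on control arrays 1 and 4, and 0.006 to 0.253 on the knockout arrays. Its place below 0 in the family count thus depends on control array 3.

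The smaller families gave no calls in the limma fit. Slc36a1, the proton-coupled carrier of small amino acids, differed by -0.10 and Slc36a4 by 0.45. Slc43a1 and Slc43a2, carriers of large neutral amino acids, differed by 0.23 and -0.03. In the Slc7a family 0 of 10 measured genes passed and 3 had an unadjusted p under 0.05, beside 4.90% and 20.5% of all genes. Its differences ran from -0.27 for Slc7a4 to 0.92 for Slc7a15. Slc7a5, the light chain that imports leucine into growing cells, differed by -0.12 with a wide interval from -0.98 to 0.73. The creatine carrier Slc6a8 and the taurine carrier Slc6a6 differed by -0.22 and -0.17.

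For the 6 called genes found in the RefSeq promoter table, the 250 bases before the start of the gene were searched for 3 short motifs on both strands. These were GTTGCC, a core bound by RFX factors, CAAAGT, a core of HNF4 sites, and GTTAAT, a core of HNF1 sites. Over the 67 measured transporter genes in the table, GTTGCC stood in the window of 11.9%, CAAAGT in 8.96% and GTTAAT in 11.9%, beside 11.8%, 14.1% and 7.49% of the 27025 genes of the table. Among the 6 called genes GTTGCC was in 0, CAAAGT in 2 and GTTAAT in 0, so no motif overlaps another there. A match is a run of letters and not a bound site. Among them 2 falling and 2 rising genes are printed here, as given by RefSeq on GRCm38.p6, on the strand of the gene and ending 1 base before its start, with CAAAGT (here read on the opposite strand) in capitals. The windows are chr3:28697653-28697902 for Slc2a2 and chr19:28834885-28835134 for Slc1a1, on the plus strand, and chr19:34747329-34747578 for Slc16a12 and chr2:65364027-65364276 for Slc38a11, on the minus strand.
Slc2a2: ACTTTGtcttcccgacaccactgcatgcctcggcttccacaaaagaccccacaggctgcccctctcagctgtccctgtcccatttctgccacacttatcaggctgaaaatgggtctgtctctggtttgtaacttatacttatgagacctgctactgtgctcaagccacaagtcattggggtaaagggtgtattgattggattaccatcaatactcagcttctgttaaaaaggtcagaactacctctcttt
Slc16a12: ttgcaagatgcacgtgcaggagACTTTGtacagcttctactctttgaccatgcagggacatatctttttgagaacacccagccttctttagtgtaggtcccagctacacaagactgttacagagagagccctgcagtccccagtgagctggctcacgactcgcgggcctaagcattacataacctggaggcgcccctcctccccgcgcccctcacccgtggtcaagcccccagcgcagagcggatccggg
Slc1a1: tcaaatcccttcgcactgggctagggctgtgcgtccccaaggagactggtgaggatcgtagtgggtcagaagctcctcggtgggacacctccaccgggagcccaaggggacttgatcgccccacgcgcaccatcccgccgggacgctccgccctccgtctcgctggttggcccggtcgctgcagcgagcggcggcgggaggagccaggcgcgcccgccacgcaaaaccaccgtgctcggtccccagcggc
Slc38a11: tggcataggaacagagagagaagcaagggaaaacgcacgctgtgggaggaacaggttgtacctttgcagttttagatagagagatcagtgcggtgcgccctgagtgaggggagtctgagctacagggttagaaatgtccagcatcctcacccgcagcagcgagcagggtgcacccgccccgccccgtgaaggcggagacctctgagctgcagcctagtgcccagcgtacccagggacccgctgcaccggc

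The 22 carriers best known from intestinal absorption were also taken as a list. All 22 were measured, 1 fell (Slc2a2), 1 rose (Slc1a1) and 20 did not pass. Differences were below 0 for 19 of the 22, beside 60.5% of all genes, with a median of -0.19 beside -0.05 over all genes tested. An unadjusted p under 0.05 was found for 7 of them and groups that did not overlap for 3, beside 20.5% and 14.7% of all genes. Control array 2 was the lowest control array for 52 of 85 members measured on all 4 controls. The same share over all genes was not counted here. Without control array 2 the members called lower rose from 4 to 7, the 4 above together with Slc2a8, Slc3a2 and Slc38a1. That refit called 4.74% of all genes in either direction, beside 4.90% with all 8 arrays.

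**Figure D3:**
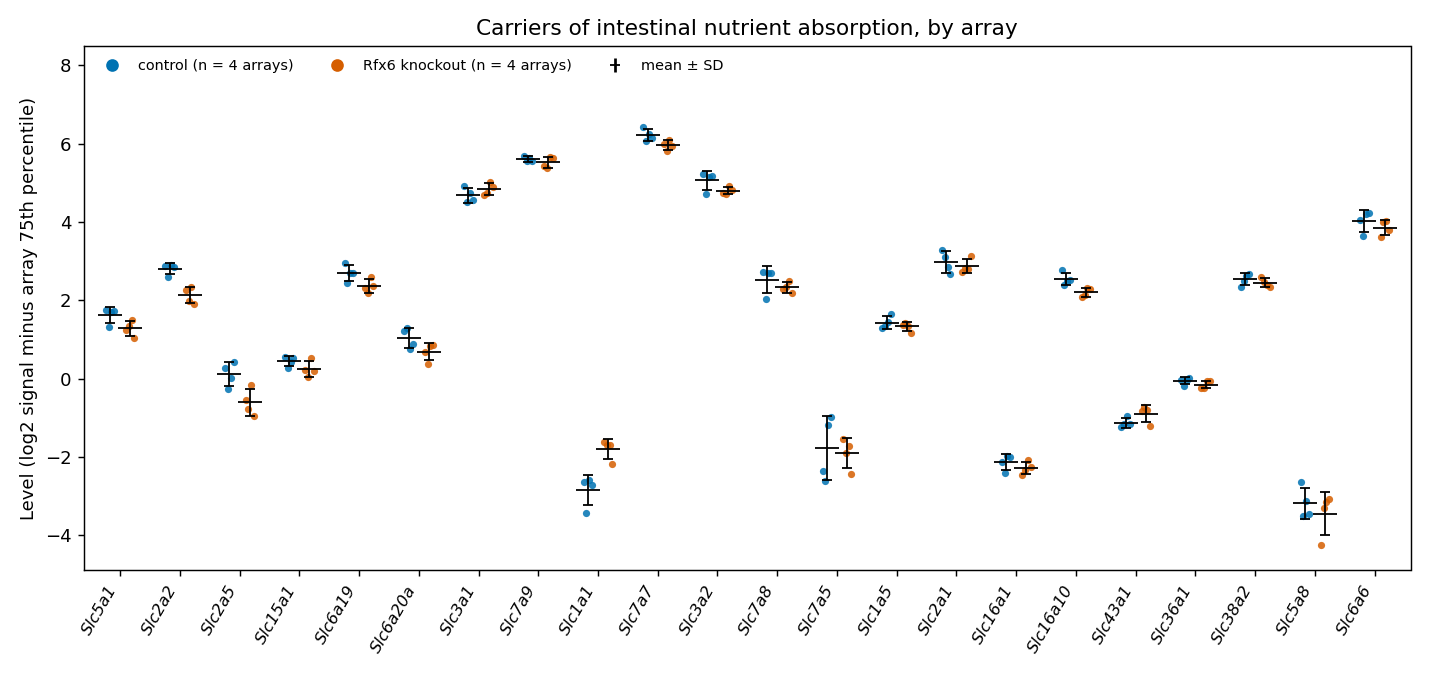
Each point is the level of 1 of 22 absorptive carriers on 1 array, as log2 signal minus the array's 75th percentile, with 4 control and 4 knockout arrays and the mean ± SD in black. Knockout means lie a little below control means for 19 genes, most within the spread of the arrays. Slc2a2, at 2.81 ± 0.15 and 2.12 ± 0.20 (SD, n = 4), and Slc1a1, at -2.85 ± 0.39 and -1.80 ± 0.26, are the 2 that passed. Levels of different genes come from different probes and are not to be compared.

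Genes that work beside the carriers were read from the same fit, each list with its background of 4.90% called. Of 13 measured partner and accessory proteins, 0 passed by limma and the median difference was -0.15. Cltrn, a partner of the Slc6a19 product in the kidney, differed by -1.03 and did not pass (limma adjusted p 0.063). Of 14 brush border sugar hydrolases and peptidases, which make the sugars, peptides and amino acids that the carriers take up, 5 fell and 0 rose. These were the peptidases Mme (-1.36), Dpep1 (-1.06) and Ggt1 (-0.46), trehalase Treh (-1.53) and lactase Lct (-0.75). Treh was well above background on 3 of 4 knockout arrays, where it read -4.00, -4.36, -4.00 and -5.15, so the size of its fall is imprecise. Anpep, the main aminopeptidase, differed by 0.12 and sucrase-isomaltase, Sis, by 0.42, and neither passed.

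Of 17 measured genes of the amino acid response, which cells switch on through Atf4 when amino acids are scarce, 1 fell and the median was -0.32. It was Atf5, at -0.63 (limma adjusted p 0.00785), and Atf4 differed by -0.26 (limma adjusted p 0.096). Of 15 transcription factors of absorptive genes, 4 fell and 1 rose. Hnf4g differed by -0.75, Ppara by -0.53, Mlxipl, which responds to glucose, by -0.53 and Gata4, a factor of the proximal intestine, by -0.51. Klf4 was the one that rose, by 0.68. Hnf4a differed by -0.13 and Cdx2 by -0.24, and neither passed.

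**Figure D4:**
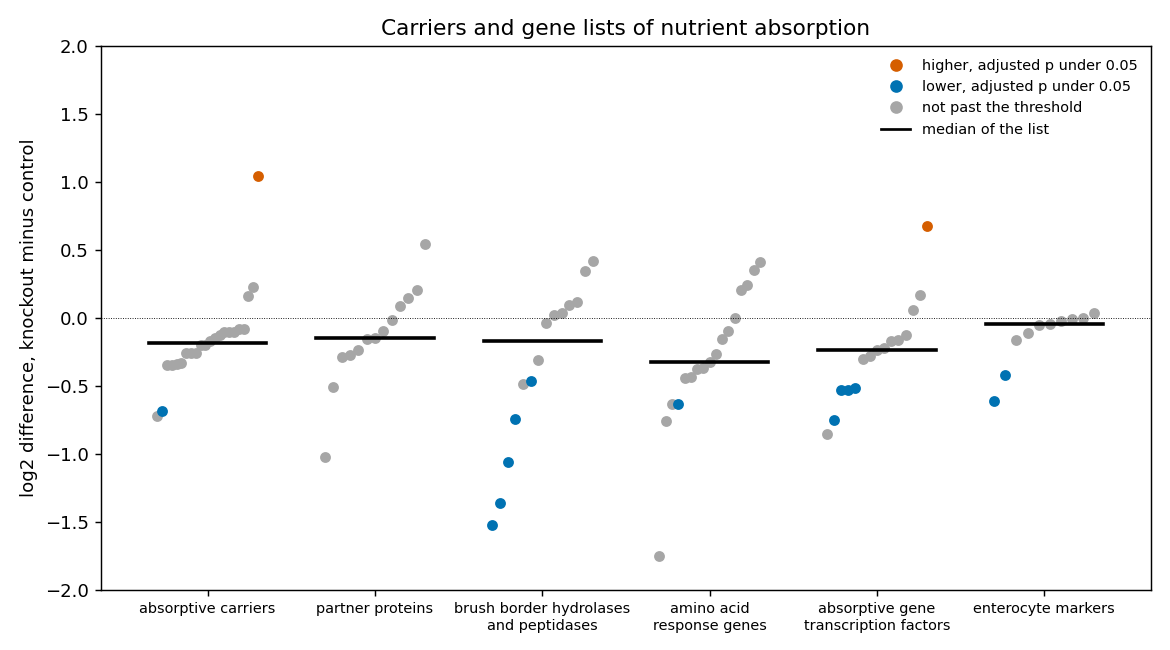
Each point is the log2 difference, knockout minus control, of 1 gene of the list named on the x axis, and the black bar is the median of the list. The medians lie between -0.32 and -0.05. Brush border hydrolases and peptidases hold 5 genes that fell, of which 3 fell by more than 1. The lowest of these, Treh, was well above background on 3 of 4 knockout arrays.

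Enterocyte markers that are not carriers were set beside these values. Of the 10, 2 fell (Apoa4 by 0.61 and Fabp2 by 0.42), 0 rose, and the median was -0.05, with Vil1 at -0.11 and Alpi at -0.05. Their summed signal, as log2, ran from 10.32 to 10.51 on control and from 9.99 to 10.22 on knockout arrays. This sum weighs the strongest signals most, and those were the 2 genes that fell. Fabp2 had a mean level of 9.44 on control and 9.02 on knockout arrays, and Apoa4 of 8.05 and 7.44. The sum therefore does not stand for the other markers. When each array was centred on the mean level of these 10 markers in place of the 75th percentile, the median of all genes moved from -0.05 to 0.09 and that of the members from -0.07 to 0.07. Under it Slc2a2 and Slc6a3 were lower and Slc1a1, Slc2a10, Slc38a11 and Slc6a14 higher, while Slc16a12 (-0.43, limma adjusted p 0.137) and Slc16a13 (-0.52, limma adjusted p 0.139) no longer passed. This setting was chosen after the data were seen. Apoa4 and Fabp2, with the largest differences of the 10 markers, also move this centring most. Lists for liver, erythroid cells, exocrine pancreas, smooth muscle, endothelium and leukocytes were also read. The liver list alone held called genes, 3 of 8 (Ttr, Fga and Fgb), all higher, beside 2.32% of all genes. Differences were below 0 for 6 of 6 exocrine pancreas genes (median -0.90), 5 of 5 erythroid genes (-0.63) and 5 of 6 leukocyte genes (-0.06). They were below 0 for 0 of 7 smooth muscle genes (0.23) and 1 of 7 endothelium genes (0.35), beside 60.5% of all genes.

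The 18 genes that were not measured were Slc1a2, Slc5a2, Slc5a12, Slc6a2, Slc6a11, Slc6a12, Slc6a15, Slc6a18, Slc6a20b, Slc7a2, Slc7a10, Slc7a11, Slc7a12, Slc7a13, Slc15a5, Slc16a4, Slc36a2 and Slc36a3. They include carriers best known from kidney, such as Slc5a2 and Slc6a18, and from brain, such as Slc1a2 and Slc6a11. Among them Slc5a12, a carrier of lactate, read -1.23 on control array 1, where it was well above background, and between -5.27 and -4.50 on the other control arrays, where it was not.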

How the data were processed

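RNA from whole small intestine (100 ng per sample, per the labels' protocols) was hybridised to 8 one-colour Agilent arrays, 4 per group, and read with Agilent Feature Extraction 10.10.1.1, per the file headers. The authors deposited scanner files whose processed signal is a background-corrected intensity on a linear scale, and a table of their own processed values, used as an alternative. Probe positions are on mm9, per the file headers. Exon and UTR positions of the probes were not analysed here.

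Control spots and outlier spots were left out, and no spot was saturated. Spots of a probe were averaged, log2 was taken, and each array's 75th percentile (signal 636 to 741) was subtracted. Of 55681 probes 31662 were well above background on all 4 arrays of a group and stood for 23277 genes, each by its brightest probe. Names were updated from a RefSeq table, by current symbol for 26320 probes, by accession for 2864 and by synonym for 492, and 26005 kept the file's name. All genes were fitted with limma 3.58.1 (lmFit and eBayes, R 4.3.3) on knockout against control, and p-values were adjusted by Benjamini-Hochberg across the whole table and called under 0.05. The fit was also run on simulated data with independent noise for each gene and array. Those data held no shifts of whole arrays or slide rows, so the run does not check the calls made here. The number of arrays limits the precision, and the median standard error over the members was 0.13.

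Members and gene lists were chosen with earlier results of these data known. Genes named by rule were the called members, the absorptive carriers, the called genes of the other lists and the member with the highest level in each family. Other members named were chosen after their values were seen or for their known role. The same holds for 2 of the 22 alternatives. The alternatives changed the background correction, scaling, filter, probe rule, source of values, blocks, weights and variance prior, or left out arrays. Replicate numbers did not pair the samples: deviations of same-numbered arrays from their group means correlated at -0.07, -0.17, 0.07 and -0.41.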

Additional observations from a re-analysis of the deposited data

Results flagged for a closer look

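Within a group of 4 arrays, 1 array stood apart from the other 3 in 13 of 78 gene and group pairs examined. For independent pairs chosen beforehand, chance would give about 1 in 20, or 3.9. These pairs share the same 8 arrays, and some genes were included because they were called. A further 4 genes, among them Slc5a5 and Slc7a15, were added after their values were seen. For these reasons 3.9 does not serve as an expected count here. Of these, 8 were low values on control array 2. They were Slc1a1 at -3.43 (others -2.71 to -2.59), Slc2a2 at 2.59 (2.86 to 2.90), Slc2a8 at 3.59 (4.03 to 4.09), Slc38a1 at 4.57 (4.80 to 4.83), Slc3a2 at 4.71 (5.16 to 5.23), Slc5a1 at 1.31 (1.70 to 1.74), Slc6a8 at 4.60 (4.90 to 4.92) and Slc7a8 at 2.02 (2.69 to 2.73). Knockout array 4 was low for Slc1a1 at -2.18 (others -1.70 to -1.63) and for Slc7a15 at -1.36 (-0.32 to -0.24). Knockout array 2 was low for Slc6a3 at 0.23 (0.58 to 0.62), and knockout array 3 was high for Slc15a4 at 2.55 (others at 2.49). Control array 4 was high for Slc5a5 at -0.95 (-7.22 to -6.48).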

How the results depend on the processing

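Of the 7 called genes, Slc6a3 and Slc38a11 passed under all alternatives in which they were measured; Slc38a11 was not measured when all 8 arrays had to be above background. Over all alternatives the 7 genes kept their call in 134 of 153 refits and lost it in 19, and none of the 7 changed sign. Of 32 other members run under the alternatives, 11 passed in at least 1, in 19 refits in all. Differences near 0, such as those of Slc1a5, Slc2a1 and Slc7a9, crossed 0 under some. The members called lower numbered 4, and 2 with no filter on dim probes, 2 when centred on enterocyte markers (added after seeing the data) and 10 with array weights. Those settings called 1.38%, 3.35% and 7.9% of all genes. Leaving out 1 array gave 3 to 7 members lower, the highest without control array 2, and 2 to 4 higher. Those refits called 2.5% to 4.74% of all genes, the highest share also without control array 2. With the replicate block, which the design does not support since the numbers do not pair the samples, 2 members were lower (Slc2a2 and Slc6a3) and 1 higher (Slc38a11), with 1.78% of all genes called. The cause of these changes was not tested. The slide and scan could not be used as blocks, since all arrays share 1 of each. Values near background, such as those of Slc5a5, Slc6a14 and Slc38a11 on control arrays, have the least precision.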
